A study of Mus musculus with 8 samples.

Results

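The Siglec genes and Cd33 encode lectins that bind sialic acid, and 7 of them were followed here: Siglec1, Siglecf (listed under its older name Siglec5), Siglece, Siglecg, Cd33, Cd22 and Mag. All probes whose transcript accession maps to 1 of these symbols were taken, which gave 10 probes of 55681 outside the controls and 7 genes of 20887 with a matched probe. Siglec1, Siglecf and Siglecg had 2 probes each, and the other 4 genes had 1. The study measured total RNA of dendritic cells grown from bone marrow of C57BL/6 female mice, on one-colour Agilent arrays, without or with lipopolysaccharide (LPS), which stems from the outer membrane of bacteria and is sensed by Tlr4. The immature group held 4 samples taken on day 6 of a culture that held GM-CSF (10 ng/ml) together with IL-4. The LPS group held 4 samples of such immature cells that then received LPS at 50 ng/ml overnight and were collected on day 7. Cells of day 7 without LPS were not among the samples, so the comparison covers LPS together with the further night in culture.

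Siglecs are membrane proteins of the immunoglobulin family whose outermost domain binds sialic acids, the sugars that cap the glycans of vertebrate cells. Most carry tyrosine motifs called ITIMs in their tails, which recruit the phosphatases SHP-1 and SHP-2 and restrain the cell when sialylated self is bound. A few instead pair with the adaptor DAP12, which carries an activating motif (ITAM), and Siglec1 has a long extracellular part with no ITIM and serves adhesion and the capture of sialylated particles. On dendritic cells and macrophages these receptors are known as brakes on responses to microbes and as uptake receptors.

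Values are log2 processed signals minus the 75th percentile of the same array, so a level of 0 equals that percentile, and changes are log2 differences, LPS minus immature, tested with limma and called at a Benjamini-Hochberg adjusted p of 0.05 over 12706 genes. A gene with several probes is represented by the one with the highest mean. Probes differ in how brightly they report a transcript, so the level of one gene is not read against that of another, and sums over a list are read only across arrays. Between 47.5% and 51.3% of the spots of an array were well above background, no spot was saturated, and the median standard error of a change was 0.12. All 8 arrays lay on 1 slide, immature in row 1 and LPS in row 2, so slide row and treatment cannot be told apart. The replicate number of an array was also its slide column, so these cannot be told apart either. All 10 genes of a dendritic cell marker list were well above background on all 8 arrays. Among them Cd74, the invariant chain of MHC class II, fell by 0.46 ± 0.09 log2 (SE, n = 4 per group), and Flt3, a cytokine receptor of the dendritic lineage, rose by 2.65 ± 0.18.

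All 7 genes were well above background on all 8 arrays through their brighter probe. After LPS, 2 of the 7 rose (Siglec1 and Siglece), 1 fell (Siglecf) and 4 did not pass (Siglecg, Cd33, Cd22 and Mag). The 3 called genes are 42.9% of the family, against 56.1% of all genes tested. Among all genes tested 31.4% rose and 24.7% fell. Rises were thus 56.0% of all calls, against 38.5% relative to the array median and 35.3% with no scaling. The immature and LPS arrays did not overlap for the same 3 genes, against 52.4% of all genes tested. The median change of the 7 was 0.29 log2, beside 0.06 for all genes tested.

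**Figure D1:**
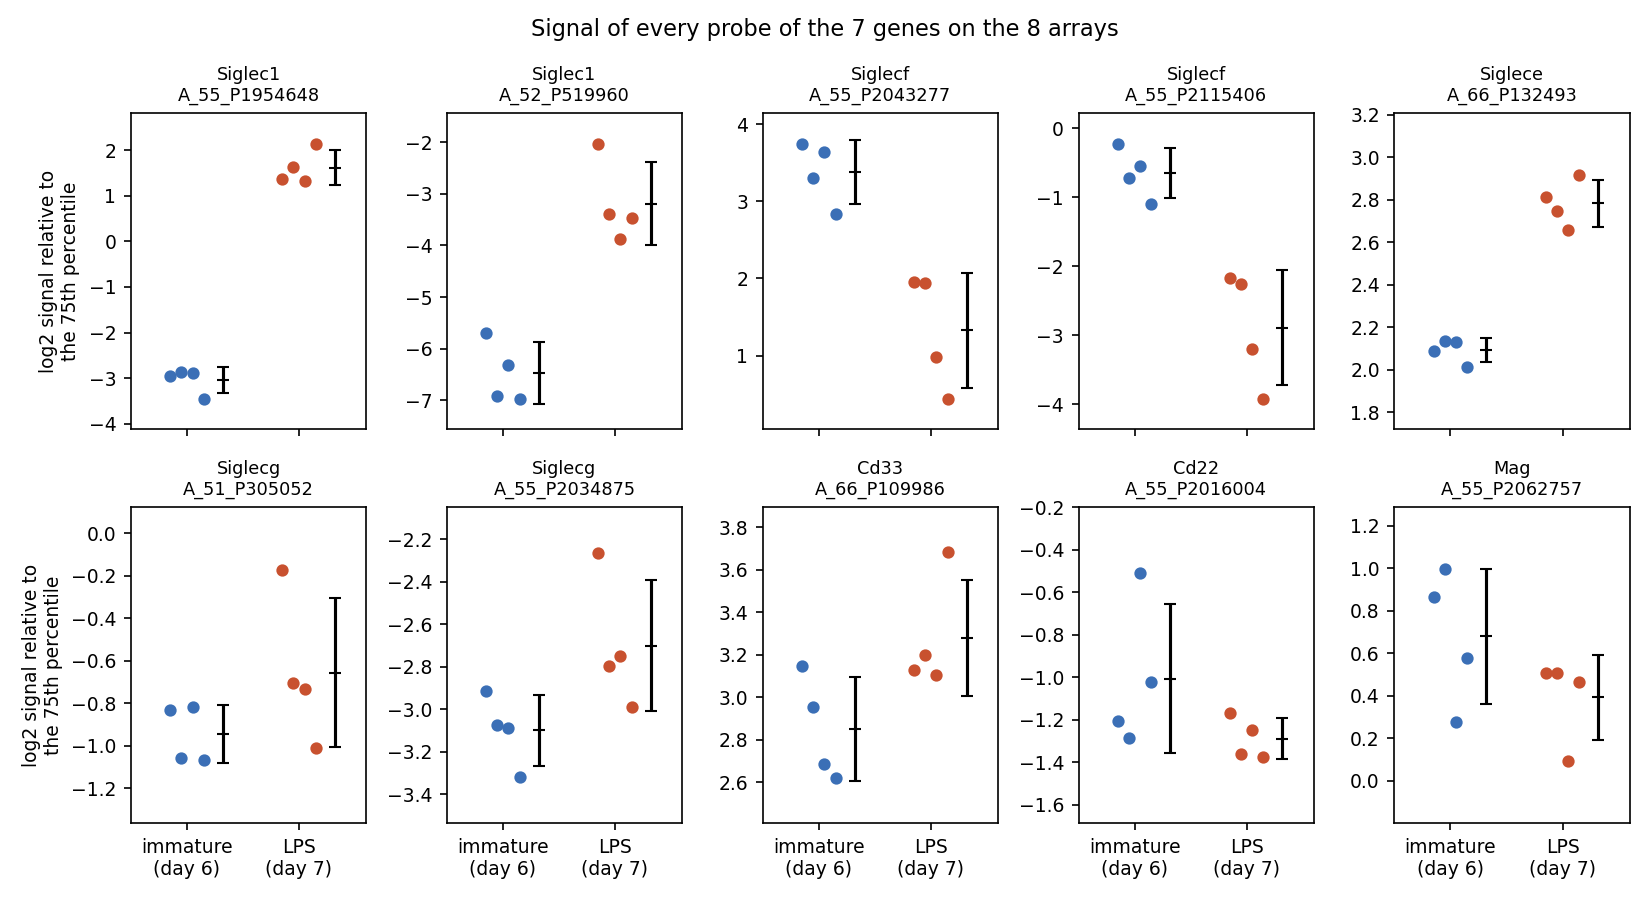
Log2 signal relative to the 75th percentile of the array (vertical axes, each panel with its own range) for the 10 probes of the 7 genes; points are the 4 immature (blue) and 4 LPS arrays (red) in replicate order, and the bars are mean ± SD. The groups part for Siglec1, Siglecf and Siglece and overlap for Siglecg, Cd33, Cd22 and Mag.

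Siglec1 encodes sialoadhesin (CD169), the adhesion receptor of macrophages, which is known to be induced by type I interferon. Its brighter probe (A_55_P1954648) had levels of −2.96, −2.86, −2.88 and −3.45 on immature arrays 1 to 4, and of 1.37, 1.63, 1.32 and 2.14 on LPS arrays 1 to 4. Every LPS array lay far above every immature array. The change was 4.65 ± 0.21 log2 (SE from 4 arrays a group; adjusted p from limma = 1.47e-06), a 25.1-fold change with a 95% interval of 18.1 to 34.9. Of the 12706 genes tested, 39 had a larger rise.

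The dimmer Siglec1 probe (A_52_P519960) was not well above background on any immature array and was well above it on all 4 LPS arrays, where its levels were −2.03, −3.38, −3.88 and −3.46. Its LPS signal was at least 2.98-fold higher, counted against each immature array's dimmest signal above its background. Both Siglec1 probes moved in the same direction. When probes were tested 1 by 1, the dimmer probe was called too (limma adjusted p = 0.000415, over 25941 probes, of which 49.8% were called, 26% higher and 23.8% lower). The size of the rise depends on how dim signals are treated. For the gene it was 3.65 log2 with normexp background correction and 3.97 with the mean of both probes, and it was called in both cases. The fitted change of the dimmer probe by itself was 3.29 log2, but 0.82 with normexp, where it was still called.

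A list of 14 other interferon-stimulated genes was set beside Siglec1. All 14 rose, with a median of 3.36 log2, where 31.4% of all genes tested rose and 24.7% fell. Irf7, the factor that amplifies interferon production, rose by 6.33 ± 0.11 (SE, n = 4 per group), Ifi44 by 5.58 ± 0.28, and Ifit1, a sensor of foreign RNA caps, by 4.67 ± 0.29. The change of Siglec1 lay within their range. Macrophage marker genes moved in both directions. Of their 9 tested genes 5 fell and 2 rose, with the scavenger receptor gene Marco rising by 3.25 ± 0.24 and the growth factor receptor gene Csf1r at −0.13 ± 0.08 (limma adjusted p = 0.211). Csf1r was called lower with scaling to the array median (−0.30), with no scaling (−0.34) and with the mean of its probes (−0.28). The summed signal of the 12 macrophage markers, in units of the 75th percentile, ranged from 426 to 490 on the immature and from 590 to 696 on the LPS arrays. Without Marco the sum of the other 11 ranged from 386 to 466 on the immature and from 333 to 393 on the LPS arrays. The defining tissue macrophage markers Cd163, Timd4 and Vsig4 were not well above background on any array, and 8 of the 12 were on all 8 arrays. The part of macrophages in the rise of Siglec1 was not tested.

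Siglece encodes an inhibitory receptor of neutrophils, macrophages and dendritic cells with ITIM motifs in its tail. Its probe (A_66_P132493) had 2.09, 2.14, 2.13 and 2.01 on immature arrays 1 to 4 and 2.81, 2.74, 2.66 and 2.91 on LPS arrays 1 to 4. The spread within each group was small, with an SD of 0.06 and 0.11, and the groups did not overlap. Siglece rose by 0.69 ± 0.08 log2 (SE from 4 arrays a group; adjusted p from limma = 0.000156), which is 1.61-fold with a 95% interval of 1.43 to 1.83. Of all genes tested, 29.3% had a larger change in either direction. In the neutrophil marker list 10 of 11 tested genes fell and 0 rose (median −2.56), where 24.7% of all genes tested fell. Its summed signal ranged from 882 to 1023 on the immature and from 413 to 608 on the LPS arrays. Mpo, the myeloperoxidase gene of neutrophil precursors, fell by 4.66 ± 0.42, and S100a9, a calcium-binding protein gene of mature neutrophils, fell by 0.80 ± 0.16. The part of neutrophils in the result for Siglece was not tested.

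Siglecf encodes the inhibitory Siglec known from eosinophils and alveolar macrophages. Its brighter probe (A_55_P2043277) had 3.75, 3.31, 3.65 and 2.84 on immature arrays 1 to 4, and 1.95, 1.94, 0.99 and 0.44 on LPS arrays 1 to 4. The groups did not overlap, and LPS arrays 3 and 4 were lower than LPS arrays 1 and 2. Siglecf fell by 2.05 ± 0.37 log2 (SE from 4 arrays a group; adjusted p from limma = 0.00174), a 4.15-fold lower signal, with a 95% interval of −2.90 to −1.21 log2. The dimmer probe (A_55_P2115406) gave −0.22, −0.72, −0.55 and −1.10 on the immature and −2.17, −2.26, −3.21 and −3.92 on the LPS arrays. Within each group the arrays had the same order on both probes, and the dimmer one fell by 2.24 ± 0.39 (limma adjusted p = 0.00183 over all probes). With normexp background correction the dimmer probe fell by 1.40 and was still called. Of all genes tested, 299 had a larger fall.

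The RefSeq promoter table (GRCm38.p6) held 9 starts of 6 of the 7 genes, Siglec1 not among them. The 250 bases before the start are shown for Siglece and Siglecf, the called genes with an entry, because they moved in opposite directions. Capitals mark matches, on either strand, to the letters searched for NF-kB, which LPS activates (GGG and CC with any 5 bases between them), or for PU.1, the myeloid lineage factor (GAGGAA). Siglece is on the minus strand at chr7:43660162-43660411 and Siglecf on the plus strand at chr7:43351091-43351340.
Siglece: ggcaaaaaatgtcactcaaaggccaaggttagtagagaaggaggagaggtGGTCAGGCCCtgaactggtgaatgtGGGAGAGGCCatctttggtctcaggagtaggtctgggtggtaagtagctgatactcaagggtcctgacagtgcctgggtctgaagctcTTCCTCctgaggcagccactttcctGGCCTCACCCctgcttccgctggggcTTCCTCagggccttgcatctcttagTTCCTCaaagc
Siglecf: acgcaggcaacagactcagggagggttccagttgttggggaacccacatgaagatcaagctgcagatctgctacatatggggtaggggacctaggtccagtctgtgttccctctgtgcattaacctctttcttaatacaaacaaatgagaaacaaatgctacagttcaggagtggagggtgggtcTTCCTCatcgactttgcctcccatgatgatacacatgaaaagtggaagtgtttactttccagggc

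The Siglece window held 3 NF-kB matches, starting 200, 175 and 62 bases before the start, and 3 PU.1 matches, starting 87, 36 and 11 bases before it. The Siglecf window held 1 PU.1 match, 65 bases before the start, and no NF-kB match. None of these matches overlapped another. Over the 32851 promoters of the table, 45.8% held the NF-kB letters and 23.3% the PU.1 letters in a window of this length. Genes that did not pass held them too: all 3 Mag windows held the NF-kB letters, and windows of Cd33, Siglecg and Mag held the PU.1 letters. In all, 4 of the 9 windows held the NF-kB letters and 6 the PU.1 letters. The windows of 2 neighbouring Mag starts overlapped and held the same NF-kB and PU.1 sites, which are counted in both. The interferon response element ISRE was searched as a pair of GAAA with any 2 bases between them, which 2.98% of promoters held, and was in none of the 9 windows. Nor did any of them hold AGATAA, searched for GATA factors and found in 9.99% of promoters. STAT6 was searched as TTC and GAA with any 4 bases between them (5.85% of promoters) and had no match either. With 3 bases between, the GAS letters (7.02% of promoters) matched at the same site in the windows of these 2 neighbouring Mag starts. A match is a description of the letters and not of binding.

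Eosinophil marker genes fell beside Siglecf. Of 9 genes, all tested, 6 fell, 0 rose and 3 did not pass, with a median of −1.46 log2. Over all genes tested, 24.7% fell and 31.4% rose. Ear6 and Ear2, ribonucleases of eosinophil granules, fell by 2.28 ± 0.39 and 2.06 ± 0.31 (SE, n = 4 per group). The summed signal of the list ranged from 409 to 451 on the immature and from 65.0 to 185 on the LPS arrays. Both the list and Siglecf were lowest on replicate 4 of each group. On LPS array 3, however, the list was at its highest among the LPS arrays (185), while Siglecf was below its level on LPS arrays 1 and 2. The 3 that did not pass were Ccr3 and Il5ra, the eotaxin and interleukin-5 receptors of eosinophils, at 0.16 and 0.37 log2, and Alox15 at −0.36. The part of eosinophils in the fall of Siglecf was not tested, and in these bulk samples fewer cells of a type and less RNA per cell cannot be told apart.

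**Figure D2:**
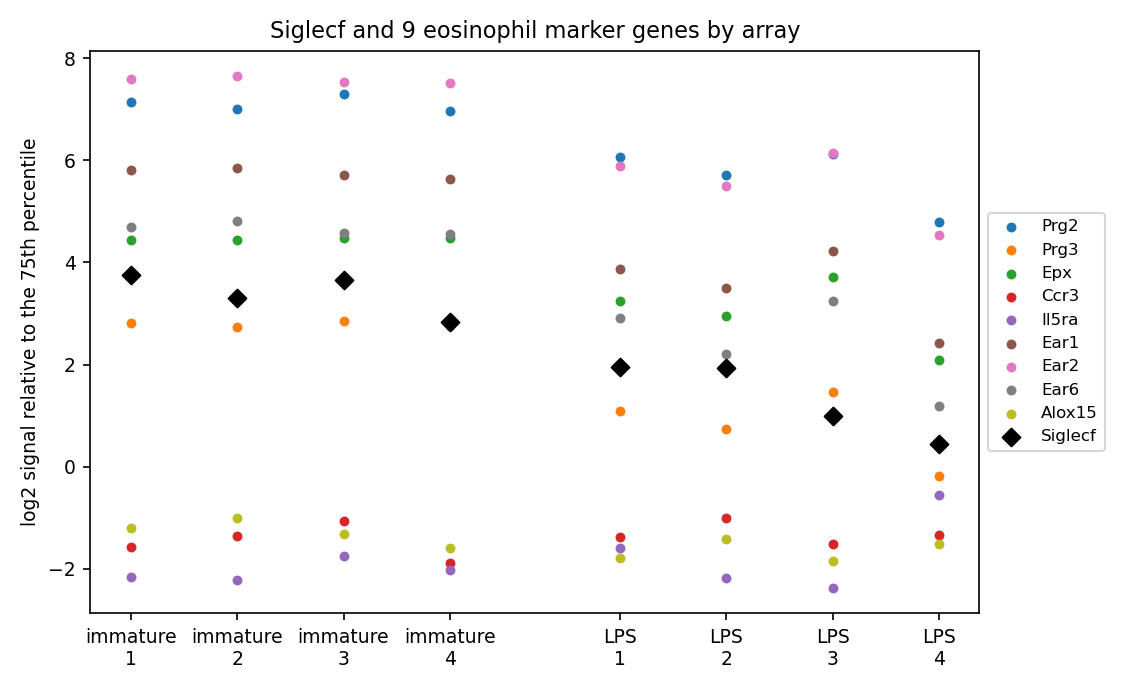
Log2 signal relative to the 75th percentile (vertical axis) on each of the 8 arrays (horizontal axis) for Siglecf (black diamonds) and 9 eosinophil marker genes (coloured points). Siglecf goes from 2.84 or above on the immature arrays to 1.95 or below on the LPS arrays, beside lower Prg2, Prg3, Epx, Ear1, Ear2 and Ear6. Heights of different genes are not comparable.

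Cd33, a founding member of the subfamily known as a myeloid surface marker (probe A_66_P109986), had 3.15, 2.96, 2.69 and 2.62 on immature arrays 1 to 4. On LPS arrays 1 to 4 it had 3.13, 3.20, 3.11 and 3.69. Immature array 1 lay among the LPS arrays, and LPS array 4 stood above the other 7. The difference of 0.43 ± 0.17 log2 (SE, n = 4 per group) did not pass (limma adjusted p = 0.0552), and its 95% interval was 0.05 to 0.81. Without immature replicate 1 the difference was 0.53 and passed (adjusted p = 0.0326), and with an intensity trend in the moderation the adjusted p was 0.0450.

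Siglecg encodes the ITIM-bearing Siglec of B1 cells and some dendritic cells, known to bind the sialylated protein CD24. Its brighter probe (A_51_P305052) had −0.83, −1.06, −0.82 and −1.07 on immature arrays 1 to 4 and −0.17, −0.71, −0.73 and −1.01 on LPS arrays 1 to 4. LPS arrays 1 to 3 lay above every immature array, and LPS array 4 lay among them. The difference of 0.29 ± 0.17 did not pass (SE, n = 4 per group; limma adjusted p = 0.180; 95% interval −0.10 to 0.68), and without LPS replicate 1 it was 0.13. The dimmer probe (A_55_P2034875) had −2.91, −3.07, −3.09 and −3.32 on the immature and −2.26, −2.80, −2.75 and −2.99 on the LPS arrays, and there too LPS array 4 lay among the immature arrays. It had a difference of 0.40 ± 0.16 and did not pass either (adjusted p = 0.0702 over all probes), and was at 0.25 without LPS replicate 1, but it passed without LPS replicate 4 (0.49, adjusted p = 0.0384) and with normexp background correction (0.29, adjusted p = 0.0230).

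Cd22, the inhibitory coreceptor of the B cell receptor (probe A_55_P2016004), had −1.21, −1.29, −0.51 and −1.02 on immature arrays 1 to 4 and −1.17, −1.36, −1.25 and −1.38 on LPS arrays 1 to 4. Immature array 3 stood above the rest, the groups overlapped, and the LPS arrays lay close together with an SD of 0.10. The difference was −0.28 ± 0.16 (SE, n = 4 per group; limma adjusted p = 0.176; 95% interval −0.66 to 0.09), and without immature replicate 3 it was −0.12. The call depends on the scaling: Cd22 passed relative to the array median (−0.46, adjusted p = 0.0301) and with no scaling (−0.49, adjusted p = 0.0250). Of 9 matched B cell markers 5 were tested, and the lineage factors Pax5 and Ebf1 were not well above background on any array, and 3 of the 9 were on all 8 arrays. The summed signal of the 9 ranged from 1.74 to 3.85 on the immature and from 9.72 to 14.8 on the LPS arrays. Cd72 was the 1 called of the 5 tested, where 56.1% of all genes tested were called. Without Cd72 the summed signal of the other 8 ranged from 0.985 to 3.05 on the immature and from 0.753 to 1.94 on the LPS arrays. The part of B cells in the signal of Cd22 and Siglecg was not tested.

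Mag encodes the myelin-associated glycoprotein, the Siglec of oligodendrocytes and Schwann cells that holds myelin to the axon. The signal of its probe (A_55_P2062757) exceeded background on each of the 8 arrays, with 0.87, 1.00, 0.28 and 0.58 on immature arrays 1 to 4 and 0.51, 0.51, 0.09 and 0.47 on LPS arrays 1 to 4. The groups overlapped, and the lowest array of each group was replicate 3. The difference of −0.29 ± 0.17 did not pass (SE, n = 4 per group; limma adjusted p = 0.184; 95% interval −0.68 to 0.10), but did without immature replicate 3 (−0.42, adjusted p = 0.0362), while without immature replicate 2 it was −0.18. In the myelin and oligodendrocyte list the structural genes Mobp and Cldn11 were not well above background on any array, while Mbp, Mog, Cnp and Sox10 were on all 8. Mog, a surface protein of myelin, and Cnp, an enzyme of myelinating cells, had changes of 0.01 and 0.08 and did not pass. Mbp, which has transcripts outside myelin as well, had a change of 0.15 ± 0.11 (adjusted p = 0.255), which turned to −0.02 with scaling to the array median and −0.06 with no scaling. The summed signal of the list ranged from 29.6 to 35.4 on the immature and from 31.2 to 37.9 on the LPS arrays. Most of this sum was the signal of Mbp, and a sum without Mbp was not taken. The lineage factor Sox10 was the 1 of 5 tested that passed, with a rise of 0.89 ± 0.19. The share that passed over all genes tested was 56.1%. The part of such cells in the signal of Mag was not tested.

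**Figure D3:**
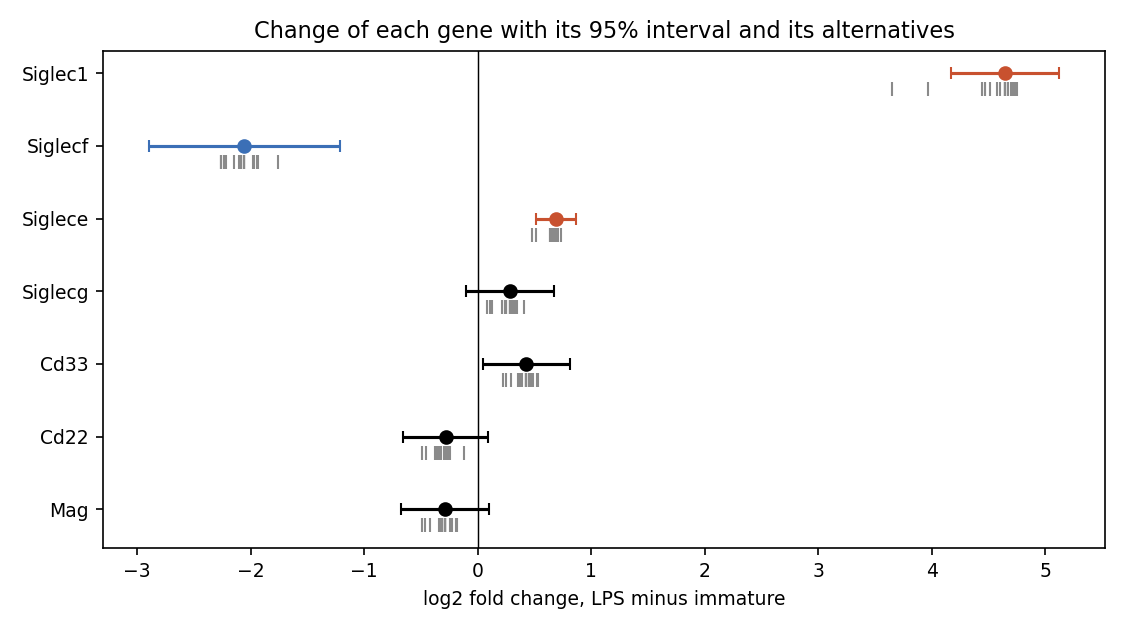
Log2 fold change, LPS minus immature (horizontal axis), of the 7 genes; points are the values reported with their 95% intervals from limma, red for a rise, blue for a fall and black where the test was not passed, and grey ticks give the same value under each of 20 alternatives. Siglec1, Siglecf and Siglece stay on their side of 0, and no tick of the other 4 genes crosses 0 either.

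The family has 2 further mouse members that both pair with DAP12. Siglech, known as a marker of plasmacytoid dendritic cells, had a bright probe at 6.56, 6.58, 6.72 and 6.49 on the immature and 6.83, 6.71, 6.77 and 6.71 on the LPS arrays. Its difference of 0.17 ± 0.07 did not pass (SE, n = 4 per group; limma adjusted p = 0.0875). As a rise it passed with an intensity trend (adjusted p = 0.0404) or without immature replicate 3 (0.21, adjusted p = 0.0241). As a fall it passed with the mean of both probes (−0.62, adjusted p = 0.00819), and the sign also turned with scaling to the array median (−0.01) and with no scaling (−0.04). The other Siglech probe, matched to the same transcript, averaged −4.61 in the immature group and −6.02 in the LPS group, and the groups did not overlap. It was well above background on 1 immature array and on no LPS array. The mean of both thus rests on a probe that was dim on the other 7 arrays. The sign of the change differs between the probes, and which of them represents Siglech was not settled. Apart from that mean, the changes given for Siglech are those of its bright probe. The plasmacytoid list includes Siglech itself. Of its 8 tested genes 1 rose (Bst2, by 2.60 ± 0.11), 1 fell (Klk1, by 4.12 ± 0.24) and 6 did not pass, Siglech among them. The share called over all genes tested was 56.1%. Bst2 is also 1 of the 14 interferon-stimulated genes set beside Siglec1. Siglec15, known from osteoclasts, was not well above background on any array.

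On mouse chromosome 7 the RefSeq table places Siglecf, Siglecg, Cd33 and Siglece in that order, with no gene between Siglecf and Siglecg, and Cd22 beside Mag with 1 non-coding gene between them. Of these neighbours, Siglecf fell while Siglecg did not pass, and Siglece rose while Cd33 did not pass. Neither Siglecg and Cd33 nor Cd22 and Mag passed. Whether the changes of neighbours differ was not tested.

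Src-family kinases phosphorylate the ITIMs, which then recruit phosphatases, and the kinase Syk acts downstream of DAP12. Of 20 tested genes of this signalling 8 rose, 6 fell and 6 did not pass (median 0.12 log2). The shares over all genes tested were 31.4% rising and 24.7% falling. Ptpn6, encoding SHP-1, fell from 4.65 to 4.15, by 0.50 ± 0.08 (SE from 4 arrays a group; adjusted p from limma = 0.000881). Ptpn11, encoding SHP-2, had −0.05 ± 0.09 (adjusted p = 0.707), and 0.01 without immature replicate 1. The largest changes were those of Socs3, a feedback inhibitor of cytokine signalling (a rise of 2.17 ± 0.32), Blnk, an adaptor that Syk phosphorylates (a rise of 1.61 ± 0.16), and Fgr, a myeloid Src-family kinase (a fall of 1.29 ± 0.14).

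Of the 3 transmembrane adaptors with or beside an ITAM, Fcer1g, the common gamma chain of Fc receptors, rose by 0.81 ± 0.09 (SE, n = 4 per group). Tyrobp, encoding DAP12, fell by 0.35 ± 0.08 (limma adjusted p = 0.00606). Hcst, encoding DAP10, had −0.30 ± 0.12 and did not pass (adjusted p = 0.0539). Hcst was called lower in 7 of 20 alternatives, among them the array median (−0.47), no scaling (−0.51) and leaving out immature replicate 4 (−0.38).

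The sugar that Siglecs bind is made in the cytosol and nucleus and moved into the Golgi. Of 6 tested genes of this route 1 rose, 1 fell and 4 did not pass (median −0.08). The share called over all genes tested was 56.1%. Gne, the enzyme that starts sialic acid synthesis, had −0.31 ± 0.12 (SE, n = 4 per group) and did not pass (limma adjusted p = 0.0517). It passed without immature replicate 3 (−0.36) or LPS replicate 3 (−0.41), with the array median (−0.48) and with no scaling (−0.52). Gne also passed with quantile normalization (−0.33) and scaling to detected probes (−0.36). At the same −0.31 it passed with an intensity trend and with the filter for signal above background on all arrays. Nanp, the phosphatase that releases free sialic acid, fell by 0.69 ± 0.11. Slc35a1, the Golgi transporter of activated sialic acid, rose by 0.30 ± 0.07, a call lost with the array median (0.13) and with no scaling (0.09).

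Sialyltransferases place the sugar on glycans, and their linkage sets which Siglec can bind. Of 20 listed genes 19 had a probe and 13 were tested, of which 4 rose, 4 fell and 5 did not pass (median −0.16). The shares over all genes tested were 31.4% rising and 24.7% falling. St3gal3, which makes alpha2,3 links, rose by 1.49 ± 0.11 (SE, n = 4 per group), while St3gal6, of the same linkage, fell by 1.73 ± 0.19. St8sia6 was well above background on all 4 immature and no LPS array and was at least 2.64-fold lower. St6gal1, which makes the alpha2,6 links that CD22 prefers, had 0.11 ± 0.26 (limma adjusted p = 0.744). Its sign turned with the array median (−0.07), with no scaling (−0.10), without immature replicate 1 (−0.03) or 2 (−0.09) and with replicates 1 and 2 averaged (−0.06).

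Among genes that remove or modify sialic acid, 3 of 9 tested rose, 2 fell and 4 did not pass (median 0.11). Over all genes tested, 31.4% rose and 24.7% fell. The 2 that fell were Ctsa (−0.22) and Slc17a5 (−0.49). Both calls were lost without immature replicate 4 or without either of LPS replicates 2 and 4. Only 1 of them was lost without immature replicate 2 or either of LPS replicates 1 and 3. Another probe of Ctsa had −0.91, and another of Slc17a5 had −0.32. Neu1, the lysosomal sialidase, rose by 0.59 ± 0.12 (SE, n = 4 per group; limma adjusted p = 0.00398), and Neu3, the plasma membrane sialidase, by 1.70 ± 0.19. Neu2 rose by 0.51 ± 0.17 with overlapping groups (adjusted p = 0.0330), and lost the call in 12 of 20 alternatives, among them leaving out immature replicate 1 (0.52) or 2 (0.40), or LPS replicate 1 (0.49), 2 (0.39) or 3 (0.51). Cmah, which makes the form of sialic acid that humans lack, had −0.60 ± 0.31 and did not pass (adjusted p = 0.129), but did with no scaling (−0.81).

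Of 6 tested carriers of Siglec ligands 3 rose, 2 fell and 1 did not pass (median 0.16). The shares over all genes tested were 31.4% rising and 24.7% falling. Cd24a, whose product binds Siglecg, fell by 2.16 ± 0.12 (SE, n = 4 per group), and Spn, encoding the mucin CD43, was 2.82-fold lower (3.97 and 2.47). Lgals3bp, a secreted glycoprotein that binds several Siglecs, rose by 2.23 ± 0.09. The other 2 rises, of Selplg and Cd52, were small (0.35 and 0.21), and the count of rises fell to 1 without immature replicate 2 or LPS replicate 1 and with the array median, no scaling, quantile normalization or scaling to detected probes.

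Of 14 tested inhibitory receptors outside the family that carry ITIMs, 6 rose, 2 fell and 6 did not pass (median 0.14). Over all genes tested, 31.4% rose and 24.7% fell. Cd72, a C-type lectin known from B cells, rose by 3.75 ± 0.13 (SE, n = 4 per group), and its second probe had 3.86. Btla, a brake on lymphocytes, rose by 1.14 ± 0.32, a call lost with replicates 1 and 2 averaged (adjusted p = 0.0501), and Fcgr2b, the inhibitory Fc receptor, rose by 0.93 ± 0.16. The falls numbered 4 with the array median and with no scaling and 1 with replicates 1 and 2 averaged, where the rises numbered 3. Siglec1 changed by more than any of the 14.

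**Figure D4:**
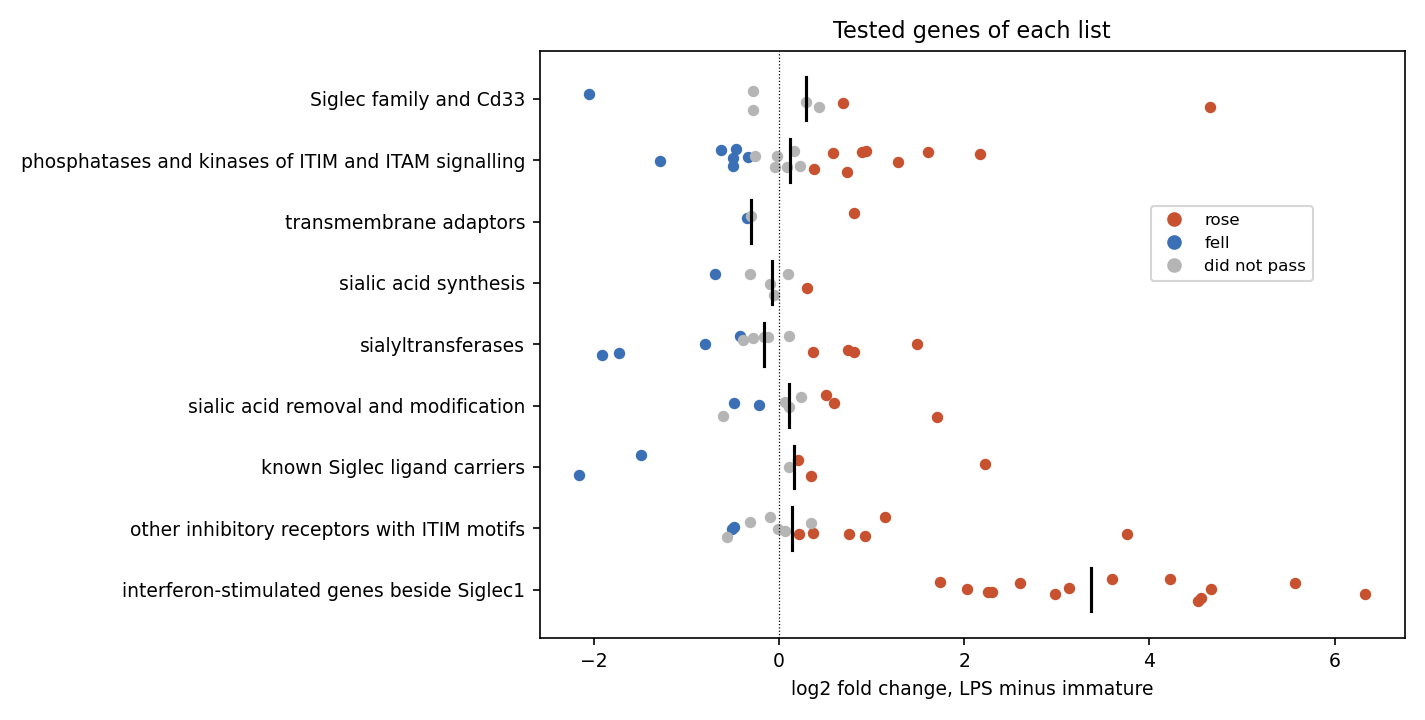
Log2 fold change, LPS minus immature (horizontal axis), of each tested gene of the family and of 8 related lists; red points rose, blue points fell and grey points did not pass, and the black bar is the list's median. All 14 interferon-stimulated genes lie to the right of 0, while the other lists lie on both sides.

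Over the 8 arrays, the genes whose signal followed each family member most closely by Pearson's r were searched among the other 12705 tested. Siglec1 was nearest to Col5a1, Ifi209 and Rtp4 (r = 0.999 for each), and 150 genes had r above 0.99. Siglecf was nearest to Tagln (0.995), Serpina3h (0.993) and Gins3 (0.988), and Siglece to Wfdc11 (0.996), Acp2 (0.995) and Zfyve27 (0.995). For genes whose groups part, r mostly follows the 2 groups. The nearest genes were Plcd3 for Siglecg (0.959), Fibp for Cd33 (0.976), Snap23 for Cd22 (0.983) and Dcun1d2 for Mag (0.982). The arrays share a slide and their scaling, and these are descriptions with no test.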

How the data were processed

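Agilent Feature Extraction 11.0.1.1 made the scanner files, per the file headers. Their deposited processed signal is a background-corrected intensity with no scaling across arrays. Raw median and local background intensities and other columns of flags, 0 or 1, for outlier, saturated and well-above-background spots, were deposited beside it. The array positions are on an older build than the RefSeq table (GRCm38.p6), so apart from the promoter sequences no positions are given.

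Spots with an outlier flag (122 to 206 per array) were left out, log2 signals of a probe averaged and each array's 75th percentile subtracted. Transcript accessions matched 27509 of 55681 probes to 1 symbol; no gene name column was at hand, and probe sequences, and so cross-hybridisation within the family, were not analysed here. A gene was tested when its brightest probe exceeded background, by the flag, on the 4 arrays of either group. The groups were compared with lmFit and eBayes (limma 3.58.1, R 4.3.3), two-sided, checked on simulated data. Probes were also fitted 1 by 1. "At least" folds compare with each dim array's lowest signal above background, or the probe's own if higher. Alternatives were other scalings (array median, none, quantile, detected probes), normexp background with an offset of 50, no or a stricter filter, probe means, outlier spots kept, an intensity trend, the replicate numbers as a block and leaving out each array. Averaging replicates 1 and 2 was added after seeing the data. Figures used matplotlib 3.10.9.

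The genes named are the 7 family genes, 10 genes set in advance, the 3 largest called changes of each list and, for each marker list, the largest called change and the gene with the highest mean signal; a few others are named where a count turns on them, after their values were seen. The monocyte list had 3 of 6 tested genes falling and 1 rising (F13a1 fell by 3.78 ± 0.56 log2), and the T cell list 2 of 5 falling and 1 rising (Cd3d was at least 3.10-fold lower; Cd4 had 0.16, or −0.01 with the array median and −0.04 with no scaling). Over all genes tested, 31.4% rose and 24.7% fell. The members and lists were chosen with earlier results of these data known. Whether the numbered replicates come from separate animals or cultures is not given in the labels, so p-values measure only the spread between these samples, and the number of arrays limits the precision.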

Additional observations from a re-analysis of the deposited data

Results flagged for a closer look

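Among the 20 groups of 4 arrays given by the 10 probes, 3 held an array far from the other 3, where chance flags about 1 group in 20. Siglec1 on its brighter probe was at −3.45 on immature array 4, below the next value of −2.96. Cd33 was at 3.69 on LPS array 4, above the next value of 3.20. Mag was at 0.0942 on LPS array 3, below the next value of 0.47. The causes were not tested.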

How the results depend on the processing

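Over 20 alternatives, Siglec1 (3.65 to 4.75 log2), Siglecf (−2.26 to −1.76) and Siglece (0.48 to 0.73) kept their direction and their call. Siglecg (0.08 to 0.40) did not pass in any of them. Cd33 passed with an intensity trend (0.43) and ranged from 0.29 to 0.53 when 1 array was left out. Cd22 passed with the array median (−0.46) and with no scaling (−0.49). Mag ranged from −0.42 to −0.18 when 1 array was left out. The causes were not tested. The count of called genes, 7124 here, was 10759 with no filter, which tests 20887 genes, and 6181 to 7899 with 1 array left out. Of the called genes 56.0% rose, against 38.5% with the array median and 35.3% with no scaling, which moved the median change of all genes from 0.06 to −0.12 and −0.15. The called genes over all lists numbered 47 to 62, against 58 here. Of 360 list counts under an alternative, 318 stayed within 1.5 times. Whether the replicate numbers pair the samples is not given in the labels. Same-numbered arrays had correlations of their deviations from the group means of 0.19, 0.02, 0.05 and −0.10. Immature arrays 1 and 3 were closest to the LPS array of their own number, and immature arrays 2 and 4 were not. Such correlations cannot settle whether the samples are paired. With the replicate numbers as a block 6606 genes were called, no family gene changed its call at gene level, and the dimmer Siglecg probe passed (0.40, adjusted p = 0.0233). Immature arrays 1 and 2 deviated together (r = 0.61), and averaging replicates 1 and 2 left 5426 genes called. Dim signals limit the second Siglec1 probe and Siglec15.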

Other observations

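Among the 4 genes between Cd33 and Siglece in the RefSeq table, chosen here after their values were seen, 2 rose. The zinc finger gene Zfp819 rose by 3.25 ± 0.29 log2 (SE from 4 arrays a group; adjusted p from limma = 4.84e-05), and Ceacam18 was well above background on no immature and all 4 LPS arrays, at least 3.90-fold higher. The other 2, Zfp658 and Zfp719, had 0.09 and 0.28 and did not pass. Between Siglecg and Cd33, 4 of 12 genes were tested: Etfb, a subunit of the electron transfer flavoprotein, fell by 0.92 ± 0.09, Iglon5 rose by 2.25 ± 0.47 with 2 of 4 immature arrays above background, and Nkg7 and Cldnd2 did not pass.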
